A study of Mus musculus with 2 samples.

Results

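The collagen chains of the mouse were compared between the telencephalon and the whole body of wild-type ICR fetuses at E12.5. The chains were taken as the genes of the FPKM table whose symbol has the form Col, a type number, a and a chain number, and 44 of 43437 genes had such a symbol. Polyadenylated RNA had been sequenced from 1 library of each tissue, and the libraries held about 29400000 fragments (whole body) and 22800000 fragments (telencephalon). ICR is an outbred stock, no treatment was given, and the number of fetuses per library, and whether heads were part of the whole-body sample, are not stated. Each tissue has 1 library and thus no replicates, so no test was possible and every difference describes these 2 libraries. FPKM is the number of fragments per kilobase of transcript, scaled to the number of mapped fragments, so levels of different chains can be compared.

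Collagens are the main structural proteins of the extracellular matrix. Their alpha chains carry long runs of glycine-led triplets and wind into a triple helix, made of identical chains in some types and of different chains in others. Fibrillar collagens form the ropes of bone, tendon, skin and cartilage, and FACIT collagens (fibril-associated collagens with interrupted helices) coat those fibrils. Type IV collagen forms the sheet of basement membranes, the thin matrix under epithelia and around vessels. In the embryonic brain, basement membranes lie at the pial surface and around the growing vessels, while the neuroepithelium itself holds little fibrous matrix.

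The libraries carried the identity their labels give. Of 7 marker genes of the telencephalon, 6 were past 2-fold higher in the library of that name. The summed level of 7 trunk and visceral markers in telencephalon was 0.181% of that in whole body. In bulk tissue, fewer cells of a type and less RNA per cell cannot be told apart.

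Sequences are shown for chains with an isoform or start-site comparison in the results, and for examples of a connective tissue chain and of a basement membrane pair. Col2a1, the type II chain of cartilage, differed between the libraries in its isoforms, and the sequence that separates them is its exon 2 (chr15:98000403-98000606 on GRCm38, minus strand, 204 bases, all coding). It is printed with exon 2 in capitals and 17 bases of the flanking exons in lower case, as spliced in the GENCODE M21 transcript.
Col2a1 exon 2: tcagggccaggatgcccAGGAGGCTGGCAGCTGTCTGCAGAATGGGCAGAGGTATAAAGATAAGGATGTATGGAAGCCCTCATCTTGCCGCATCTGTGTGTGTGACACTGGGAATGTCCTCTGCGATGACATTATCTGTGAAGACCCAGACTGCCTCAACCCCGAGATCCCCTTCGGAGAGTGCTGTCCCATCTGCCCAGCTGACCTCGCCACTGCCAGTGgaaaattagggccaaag

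Col9a1, a type IX chain, has annotated start sites at different exons, which give a longer and a shorter chain. The stretches before both starts are shown from RefSeq (GRCm38.p6, plus strand, chr1:24177360-24177609 and chr1:24194953-24195186) because each start has a transcript of its own in the isoform table. Col3a1 (chr1:45311288-45311537, plus strand) is shown as a chain of connective tissue. Col4a5 (chrX:141475169-141475384, plus strand) and Col4a6 (chrX:141474077-141474326, minus strand) are shown as a pair of basement membrane genes that lie head to head. Capitals mark matches, on either strand, to 3 motifs that do not contain one another. The first is the TATA box, searched as TATAAA. The second is the CCAAT box, searched by those letters. The third is the GC box, searched as GGGCGG.
Col9a1, longer form: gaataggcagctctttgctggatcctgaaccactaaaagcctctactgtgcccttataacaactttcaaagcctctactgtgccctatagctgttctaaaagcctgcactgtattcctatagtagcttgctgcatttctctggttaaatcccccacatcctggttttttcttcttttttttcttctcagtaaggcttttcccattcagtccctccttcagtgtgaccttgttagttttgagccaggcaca
Col9a1, shorter form: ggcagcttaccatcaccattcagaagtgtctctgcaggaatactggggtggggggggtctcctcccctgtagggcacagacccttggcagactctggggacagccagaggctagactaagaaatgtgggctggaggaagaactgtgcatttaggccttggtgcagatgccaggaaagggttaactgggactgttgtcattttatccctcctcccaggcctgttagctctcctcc
Col3a1: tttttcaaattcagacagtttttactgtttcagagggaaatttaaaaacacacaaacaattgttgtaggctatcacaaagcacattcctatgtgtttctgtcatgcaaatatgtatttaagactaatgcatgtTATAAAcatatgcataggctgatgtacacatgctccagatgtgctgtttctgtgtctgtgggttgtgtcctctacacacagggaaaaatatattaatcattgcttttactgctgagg
Col4a5: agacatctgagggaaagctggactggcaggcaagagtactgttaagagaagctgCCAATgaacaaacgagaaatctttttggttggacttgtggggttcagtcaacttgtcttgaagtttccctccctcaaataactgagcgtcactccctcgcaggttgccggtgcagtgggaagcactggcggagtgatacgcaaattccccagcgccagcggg
Col4a6: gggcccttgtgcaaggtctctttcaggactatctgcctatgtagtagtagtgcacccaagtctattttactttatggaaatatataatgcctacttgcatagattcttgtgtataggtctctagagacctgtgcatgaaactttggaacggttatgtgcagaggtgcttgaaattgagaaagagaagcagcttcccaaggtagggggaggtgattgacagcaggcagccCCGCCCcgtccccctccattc

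RefSeq start sites were matched for 35 of the 44 chains, with 38 windows of 250 bases before a start. A GC box was found in 22 of these 38 windows (57.9%), against 32.7% of all 32851 RefSeq windows of that length. The CCAAT box was found in 34.2% of the collagen windows and 33.8% of all windows, and the TATA box in 13.2% and 12.4%. The median GC content was 59% in the collagen windows and 52.4% in all windows. These matches describe letters in the windows only.

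Summed over the 44 chains, collagen RNA was 25.6-fold lower in telencephalon, and its make-up differed. The sum was 3206 FPKM in whole body and 125 FPKM in telencephalon, or 0.638% and 0.028% of all FPKM. Fibrillar chains held 66.8% of the collagen FPKM in whole body and 27.8% in telencephalon. Basement membrane chains held 5.06% and 31.6%, and the multiplexins, types XV and XVIII, which attach to basement membranes, 2.3% and 11.5%. The most abundant chain was Col1a1, of type I collagen, in whole body (527 FPKM) and Col4a1, of type IV, in telencephalon (21.4 FPKM). Without Col1a1 and Col4a1 the basement membrane share was 2.88% and 18.1%. Col26a1 was close to Col4a1 in telencephalon at 21.3 FPKM. Of this, 15.3 FPKM was assigned to a retained-intron transcript of 368 bases on about 10 fragments. Types XXVI and XXVIII, classed together as other, thus held 3.1% and 17%, which affects the sum and all shares in telencephalon. Restricting each gene to its protein-coding transcripts of 1000 bases or more, the sums were 2873 and 91.3 FPKM and the basement membrane share 5.64% and 43.1%. The share of types XXVI and XXVIII was then 2.72% and 1.86%.

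**Figure D1:**
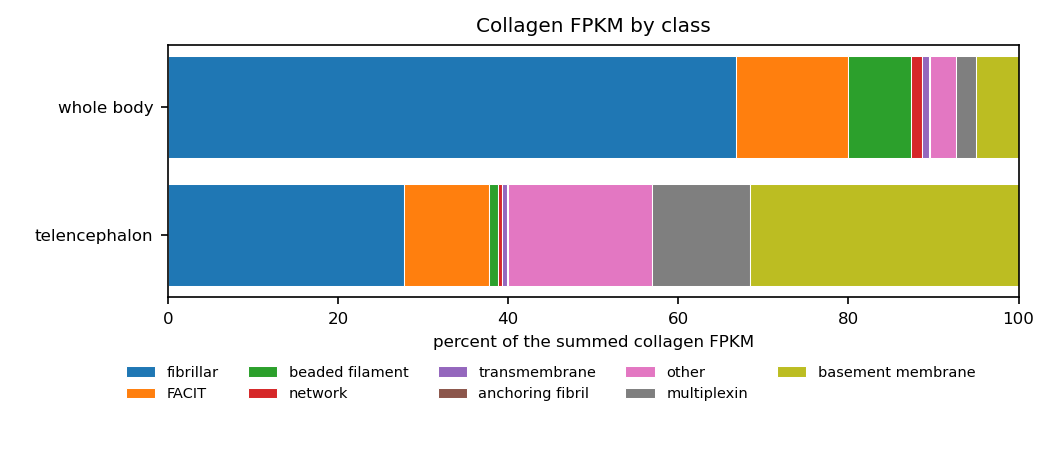
Percent of the summed collagen FPKM held by each of 9 classes (horizontal axis) in the whole-body and telencephalon libraries. Fibrillar chains take 66.8% of the bar in whole body and 27.8% in telencephalon, and basement membrane chains 5.06% and 31.6%. The class other (types XXVI and XXVIII) takes 3.1% and 17%, but 2.72% and 1.86% with coding transcripts of 1000 bases or more, which are not drawn.

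Each difference is the log2 of telencephalon over whole body after adding 1 FPKM to both, and a chain was counted as lower or higher past 2-fold on that scale. A level of 1 FPKM or more in either library was reached by 36 of the 44 chains. Of these, 34 were lower in telencephalon, 0 higher and 2 within 2-fold, with a median log2 ratio of -3.45. Among all 14987 genes at that level, 21.2% were lower and 9.39% higher, with a median of -0.16. At 8-fold, 20 of the 36 chains were lower, against 3.37% of all genes. The filter shapes these counts, since 19 of the 36 chains reached 1 FPKM in whole body alone and 0 in telencephalon alone. These 19 could only be lower or within 2-fold, and they include Col8a1, Col8a2 and every measured transmembrane and type VI chain. Col9a1, Col12a1, Col14a1 and Col16a1 of the FACIT class are also among them. Of the 17 chains at 1 FPKM or more in both libraries, 16 were lower. The share of all genes under that condition was not analysed. Scaling to a common upper quartile moved the median of all genes from -0.16 to 0.03, and no chain changed sign.

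**Figure D2:**
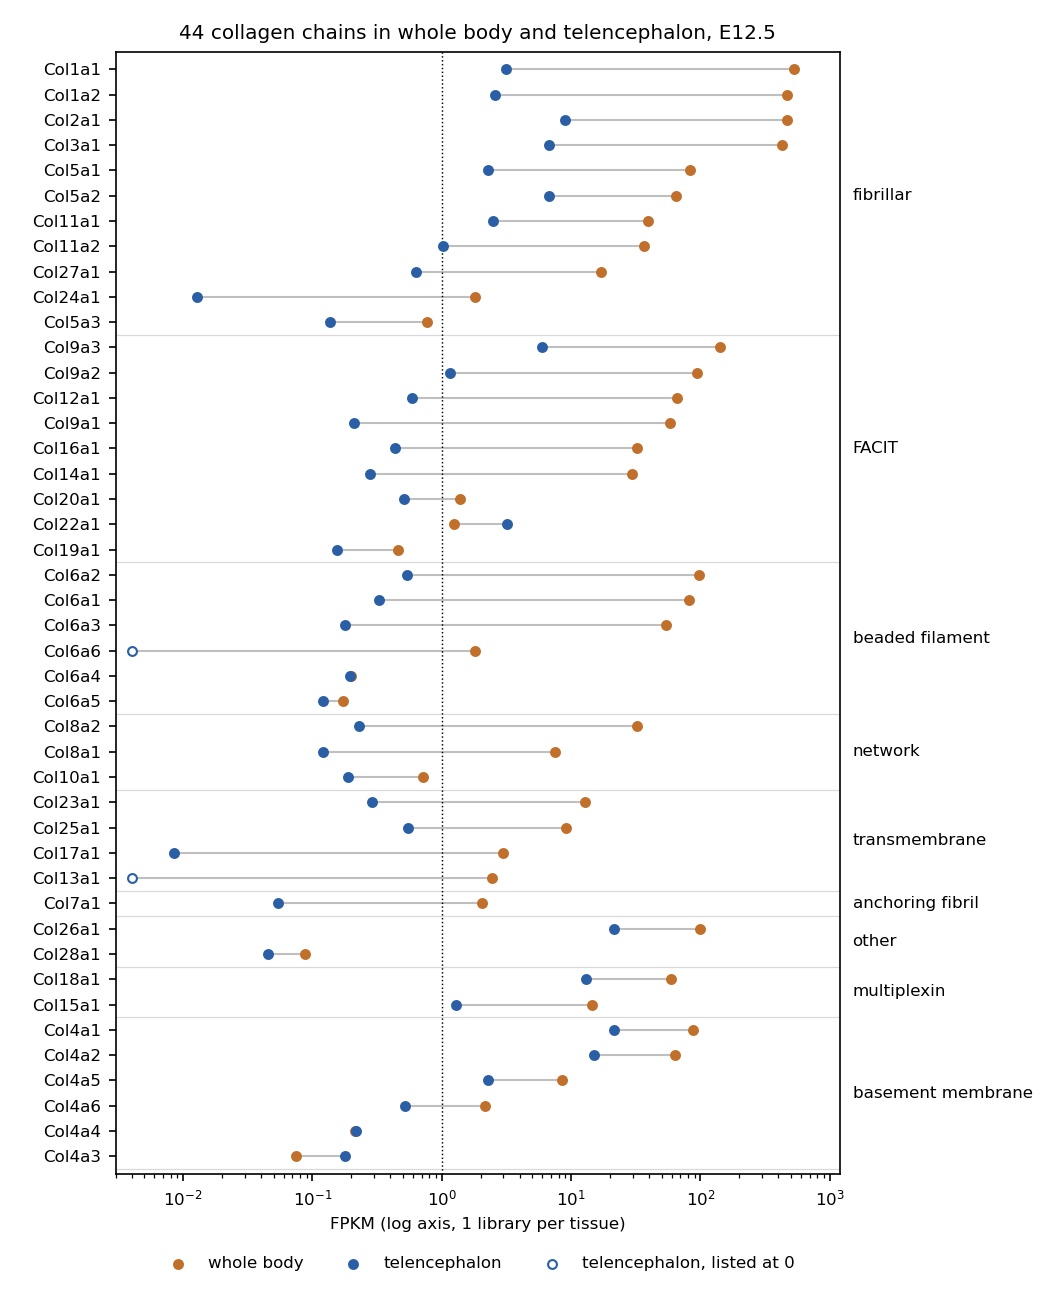
FPKM of the 44 collagen chains in whole body and telencephalon on a log axis, grouped by class, with chains listed at 0 drawn as open circles near the left edge and 1 FPKM as a dotted line. The 4 type IV chains above the line in whole body have short bars near 4-fold, while the bars of Col1a1, Col1a2, Col6a1, Col6a2 and Col6a3 span more than 100-fold.

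**Figure D3:**
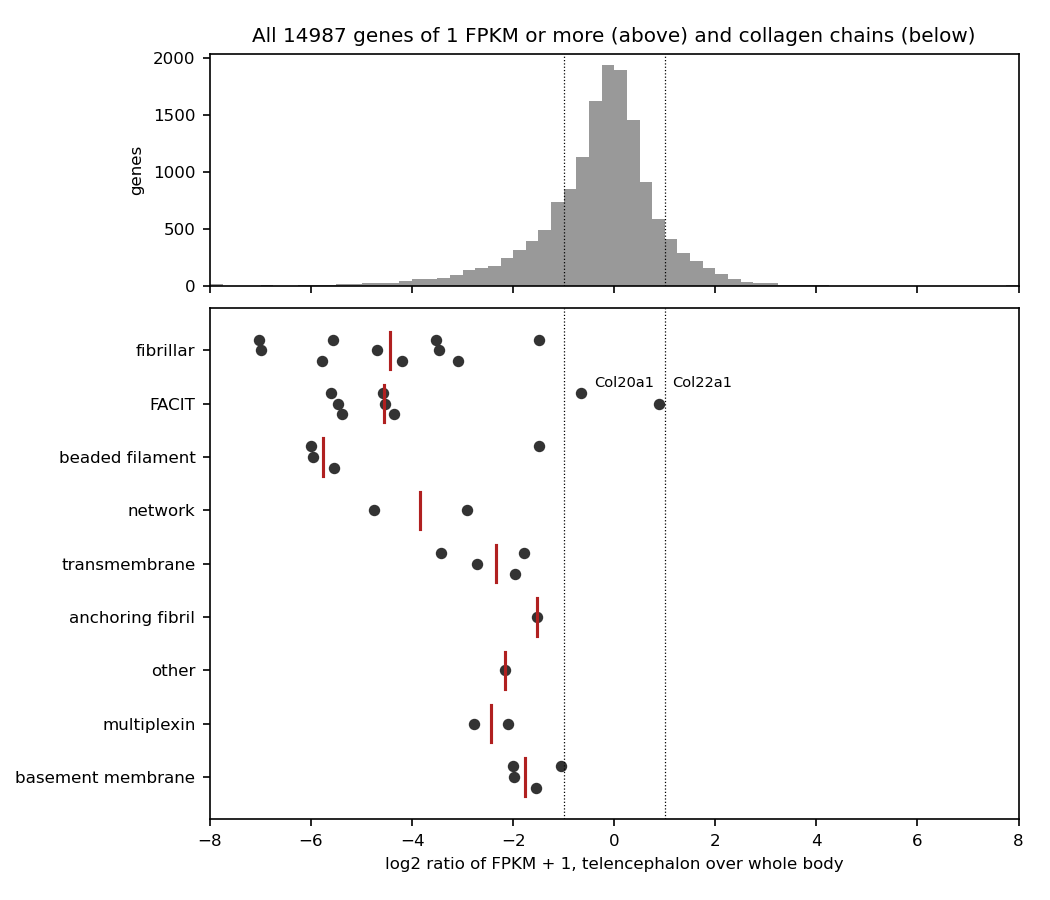
Log2 ratio, after adding 1 FPKM, of telencephalon to whole body for all 14987 genes of 1 FPKM or more (histogram, values past 8 placed in the outermost bins) and for 36 collagen chains by class (points; red lines are class medians; dotted lines mark 2-fold). Class medians run from -5.76 for the beaded filament chains to -1.53 for Col7a1 alone, and Col22a1 at 0.89 is the only point to the right of 0. The added 1 FPKM draws weakly expressed chains toward 0. Col7a1, at 2.03 FPKM in whole body, was 37.5-fold lower by FPKM alone.

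Among fibrillar collagens all 10 measured chains were lower in telencephalon, by a median log2 ratio of -4.44. Col1a1 and Col1a2, which make up type I collagen of bone, tendon and skin, were at the far end. Col1a1 measured 527 FPKM in whole body against 3.16 FPKM in telencephalon, a 167-fold difference. From about 84648 and 403 fragments, the ratio was 163 with an exact 95% interval of 148 to 180, which covers counting error only. Col1a2 stood at 470 and 2.57 FPKM, 183-fold lower, and it ranked 18 from the lowest of the 14987 genes. Its full-length coding transcript held 97.7% of its FPKM in whole body but 56.8% in telencephalon, and for coding transcripts of 1000 bases or more the fold was 314.

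Col3a1, the chain of type III collagen in vessels and soft connective tissue, measured 431 FPKM in whole body against 6.8 FPKM in telencephalon, 63.4-fold lower. In telencephalon 59.9% of that level (4.07 FPKM) came from an annotated retained-intron transcript of 431 bases, on about 8 fragments. The full-length coding transcript alone stood at 424 and 2.73 FPKM, 155-fold lower, beside 162-fold for Col1a1 and 314-fold for Col1a2 by the same measure. The gene-level fold of Col3a1 thus depends on how fragments were divided among transcripts.

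The cartilage fibrillar chains were lower too. Col2a1, the chain of type II collagen, stood at 469 and 8.98 FPKM, 52.2-fold lower, and at about 864 fragments in telencephalon it was well counted (ratio 48.8, interval 45.6 to 52.3). The type XI chains, which set the width of cartilage fibrils, stood at 39 and 2.49 FPKM for Col11a1 and at 36.4 and 1.03 FPKM for Col11a2. Col27a1, another chain of cartilage, stood at 17.1 and 0.631 FPKM. Of the cartilage markers, 7 of 7 measured were lower, against 21.2% of all genes measured. All 7 reached 1 FPKM in whole body alone, so they could only be lower or within 2-fold. Their summed level in telencephalon was 0.502% of whole body, and Matn1, together with the weakly expressed Ucma, was listed at 0. Col2a1 kept 1.92% of its whole-body level. The part of cartilage RNA in these chains was not tested.

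Col5a2 had the smallest ratio of FPKM among the 10 measured fibrillar chains. Type V collagen starts and narrows type I fibrils, and Col5a1 and Col5a2 join in the same molecule. Col5a2 measured 65.1 FPKM in whole body against 6.69 FPKM in telencephalon, a 9.72-fold difference (ratio 9.7, interval 9.07 to 10.4). Col5a1 stood at 83.7 and 2.29 FPKM, 36.5-fold lower. The ratio of Col5a1 to Col5a2 was 1.29 in whole body (1.26 to 1.32) and 0.342 in telencephalon (0.3 to 0.389), and with coding transcripts of 1000 bases or more it was 1.3 and 0.345. Col24a1 stood at 1.82 and 0.0129 FPKM, the latter from about 2 fragments (ratio 141, interval 38.8 to 1170). The remaining chain, Col5a3, was below the filter at 0.764 and 0.137 FPKM.

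Mesenchyme and fibroblast markers were lower beside the fibrillar chains. All 8 of these markers were at least 2-fold lower, against 21.2% of all genes measured. Twist2, Dcn, Lum, Dpt and Postn reached 1 FPKM in whole body alone, so they could only be lower or within 2-fold. The summed level of the 8 was 392 FPKM in whole body and 5.27 in telencephalon, 1.35% of it, with Dpt listed at 0. Meningeal markers summed to 220 and 30.3 FPKM, with 5 of 5 lower and none at 0. Of these, Foxc1, Aldh1a2 and Ogn reached 1 FPKM in whole body alone. Crabp2 gave 26.3 of the 30.3, and without it 2.51% was kept. The part of these cell types in the collagen levels was not tested.

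Type IV collagen had the median log2 ratio nearest 0 of the fibrillar, basement membrane, FACIT, network and transmembrane classes, at -1.77. All 4 measured chains stood in telencephalon at 23.7% to 26.5% of their whole-body FPKM. Col4a1 measured 87.6 FPKM in whole body against 21.4 FPKM in telencephalon (4.1-fold, fragment ratio 4.11, interval 3.95 to 4.27). Col4a2, its partner in the most widespread type IV molecule, stood at 63.6 and 15 FPKM (4.23-fold). Col4a5 stood at 8.55 and 2.27 FPKM and Col4a6 at 2.15 and 0.522 FPKM. The intervals of the 4 fragment ratios overlap one another, from 3.22 at the lowest to 5.35 at the highest.

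Chains of type IV that assemble together had ratios whose intervals overlap between the libraries. The ratio of Col4a1 to Col4a2 was 1.38 in whole body (1.34 to 1.41) and 1.42 in telencephalon (1.34 to 1.5). That of Col4a5 to Col4a6 was 3.98 (3.56 to 4.46) and 4.35 (3.36 to 5.7). Each of these pairs lies head to head on its chromosome. Col4a1 and Col4a2 on chromosome 8 overlap by 22 bases at their annotated starts, and Col4a5 and Col4a6 on chromosome X are 1308 bases apart. Col4a3 and Col4a4, the chains of the mature kidney filter, lie 71 bases apart on chromosome 1 and were below the filter in both libraries, at 0.0745 and 0.212 FPKM in whole body and 0.179 and 0.218 in telencephalon.

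The multiplexins had a median log2 ratio of -2.43. Col18a1, whose C-terminal fragment is endostatin, measured 59.2 FPKM in whole body against 13.1 FPKM in telencephalon, 4.52-fold lower (fragment ratio 4.61, interval 4.35 to 4.9). Its transcript from the upstream start held 84.6% and 92.9% of its FPKM, and the transcript from the downstream start 10.2% in whole body and about 0 fragments in telencephalon. Col15a1, of vessel and muscle basement membranes, stood at 14.5 and 1.28 FPKM, 11.3-fold lower. Col7a1, which forms the fibrils that anchor the epidermis to the dermis, stood at 2.03 and 0.0542 FPKM, 37.5-fold lower on about 11 fragments. Epidermal markers in telencephalon summed to 0.691% of whole body, with 7 of 7 lower and Krt14 and Krt18 listed at 0. All 7 reached 1 FPKM in whole body alone, so they could only be lower or within 2-fold. Among all genes measured 21.2% were lower.

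Endothelial and pericyte markers, which mark the vessels, were mostly lower as well. Of 7 endothelial markers 6 were lower, from 2.86-fold for Kdr to 8.27-fold for Emcn, against 21.2% of all genes measured. The summed level of the 7 was 130 FPKM in whole body and 51.7 in telencephalon, 39.6% of it, with none at 0. Cldn5, a tight-junction protein of brain vessels and the marker within 2-fold (27.2 and 24.4 FPKM), gave 24.4 of the 51.7, and without it 26.3% was kept. Of 6 pericyte markers 4 were lower, from 2.74-fold for Abcc9 to 8.4-fold for Cspg4, with sums of 108 and 19.8 FPKM (18.4% kept) and none at 0. Rgs5 (3.41 and 2.67 FPKM) and Kcnj8 (4.54 and 3.01 FPKM) were within 2-fold. Vtn gave 46.7 of the 108 FPKM, and without it 22.2% was kept. Their part in the level of type IV collagen was not tested.

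Genes for the partners of type IV collagen in basement membranes had a lower median than type IV itself. Of 12 measured laminins, nidogens, proteoglycans and enzymes, 10 were lower and 0 higher, against 21.2% and 9.39% of all genes measured. Their median log2 ratio was -2.47. Lama2, a laminin chain of muscle and nerve sheath, stood at 41.4 and 0.226 FPKM. It reached 1 FPKM in whole body alone and could not be counted as higher. Lamb1 (55.9 and 4.46 FPKM), a laminin chain, and Nid2 (60 and 5.27 FPKM), a nidogen that links the laminin and collagen sheets, were lower too. Agrn, a heparan sulfate proteoglycan, stood at 122 and 136 FPKM, and Lama1, a laminin chain of early basement membranes, at 4.23 and 2.86 FPKM.

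FACIT collagens split into 6 chains far lower in telencephalon and 2 within 2-fold on the FPKM + 1 scale. Their median log2 ratio was -4.55. Col9a1, Col9a2 and Col9a3 form type IX collagen on the surface of cartilage fibrils. Col9a1 measured 58.2 FPKM in whole body against 0.21 FPKM in telencephalon, 278-fold lower on about 15 fragments. Col9a2 stood at 93.4 and 1.15 FPKM, 81.1-fold lower. Col9a3 stood at 141 and 5.92 FPKM, 23.9-fold lower, with coding transcripts of 1000 bases or more at 57.9 and 2.9 FPKM. The type IX chains were thus not in the same proportion in both libraries: the ratio of Col9a3 to Col9a2 was 1.51 in whole body (1.45 to 1.58) and 5.14 in telencephalon (3.75 to 7.18), or 1.23 and 3.67 for the coding transcripts.

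The other lower FACIT chains belong to dense connective tissue. Col12a1, found along tendon and fascia fibrils, stood at 65.5 and 0.592 FPKM, 111-fold lower. Col14a1, a chain of the same group, stood at 29.6 and 0.28 FPKM, 105-fold lower. Col16a1 stood at 32.1 and 0.436 FPKM, 73.7-fold lower on about 8 fragments in transcripts of 500 bases or more, and 269-fold lower in coding transcripts of 1000 bases or more.

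Col22a1 was the only chain of 1 FPKM or more with a higher level in telencephalon. Type XXII collagen lies at tissue junctions such as that between muscle and tendon. Col22a1 measured 1.25 FPKM in whole body against 3.18 FPKM in telencephalon, 2.54-fold higher, but its log2 ratio of 0.89 on the FPKM + 1 scale was short of 2-fold. Its full-length transcript of 8809 bases stood at 1.25 and 2.28 FPKM, 1.82-fold higher, and a 659-base transcript gave the remaining 0.902 FPKM in telencephalon on about 7 fragments. From about 312 and 446 fragments the ratio was 1.84 higher, with an interval of 1.59 to 2.14. Col20a1, a weakly expressed chain, stood at 1.38 and 0.514 FPKM, 2.69-fold lower, though within 2-fold on the FPKM + 1 scale. Its full-length transcript gave 1.29 and 0.196 FPKM, and a 441-base transcript 0.318 FPKM in telencephalon on about 1 fragment. From about 158 and 19 fragments the ratio was 6.59 lower, with an interval of 4 to 11. Col19a1 was below the filter at 0.46 and 0.155 FPKM.

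Type VI collagen, which forms beaded filaments around cells in muscle, skin and nerve, was among the most unequal of the types. Col6a1 measured 82.2 FPKM in whole body against 0.327 FPKM in telencephalon, 252-fold lower on about 28 fragments (interval 174 to 380). Col6a2 stood at 98 and 0.536 FPKM, 183-fold lower, and Col6a3 at 54.2 and 0.18 FPKM, 301-fold lower. The ratio of Col6a1 to Col6a2 was 0.839 in whole body (0.816 to 0.863) and 0.609 in telencephalon (0.366 to 0.998). Col6a6 stood at 1.81 FPKM in whole body and was listed at 0 in telencephalon. Col6a4 (0.198 and 0.194 FPKM) and Col6a5 (0.172 and 0.12 FPKM) were below the filter. Col6a4, Col6a5 and Col6a6 lie side by side on chromosome 9, with 28810 and 27917 bases between neighbours.

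The network-forming chains of type VIII, found in vessel walls and in the membrane under corneal endothelium, were lower as well. Col8a2 stood at 32.4 and 0.231 FPKM, 140-fold lower on about 21 fragments. Col8a1 stood at 7.45 and 0.12 FPKM, 62.3-fold lower on about 13 fragments. Col10a1, the chain of hypertrophic cartilage, was below the filter with 0.716 FPKM in whole body and 0.189 in telencephalon.

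All 4 transmembrane collagens, which span the cell membrane with their N-terminus inside the cell, were lower in telencephalon. Col23a1 stood at 12.9 and 0.289 FPKM, 44.8-fold lower. Col25a1, a collagen that motor neurons need to innervate muscle, stood at 9.2 and 0.548 FPKM, 16.8-fold lower. Neuronal markers went the other way, with 5 of 5 higher in telencephalon and sums of 180 and 789 FPKM. Of the trunk and visceral markers, the muscle genes Myog (40.5 and 0.0758 FPKM) and Actc1 (423 and 0.734 FPKM) were lower. The part of either cell type in the level of Col25a1 was not tested. Col17a1, a hemidesmosome protein of basal skin cells, stood at 2.95 and 0.00854 FPKM, the latter from about 1 fragment (ratio 334, interval 59.7 to 13232). Col13a1, a collagen of the neuromuscular junction, stood at 2.43 FPKM in whole body and was listed at 0 in telencephalon.

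Col26a1, first found in testis and ovary, appeared among the least unequal chains at gene level but not by its full-length transcripts. It measured 99.3 FPKM in whole body against 21.3 FPKM in telencephalon, 4.66-fold lower. In telencephalon 71.9% of this (15.3 FPKM) was assigned to a retained-intron transcript of 368 bases, which had next to no FPKM in whole body (2.01e-40). The transcript is only a little longer than the 340 bases that the length correction takes off, so about 10 fragments gave its FPKM. Coding transcripts of 1000 bases or more stood at 78.1 and 1.66 FPKM, 47.1-fold lower. Col28a1 was below the filter at 0.0871 and 0.0451 FPKM.

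Isoform shares were compared in the genes with more than 1 isoform and a summed level of 5 FPKM or more in both libraries. In 4 of 8 such genes, Col2a1, Col3a1, Col9a3 and Col26a1, the share of an isoform differed by 25 percentage points or more, against 10.3% of all 6326 genes that met the same conditions. In Col3a1, Col9a3 and Col26a1 this involved a retained-intron transcript of 431, 644 and 368 bases. In telencephalon these rest on about 8, 11 and 10 fragments. That of Col9a3 held 54.9% in whole body and 25.7% in telencephalon. The share of all genes whose count rests on so few fragments was not analysed. Col2a1 is described here, since its isoforms differ by the exon printed above. The Col2a1 transcript with exon 2 measured 272 FPKM in whole body against 7.87 FPKM in telencephalon. Its transcript without exon 2 measured 117 FPKM in whole body against 9.94e-05 FPKM in telencephalon. The form with exon 2 thus held 69.8% of the pair in whole body and 100% in telencephalon. Outside this pair, a processed transcript of 575 bases starts within exon 2. It held 14.6% of the gene's FPKM in whole body (68.4 FPKM, about 493 fragments) and about 0 fragments in telencephalon. Exon 2 spans 68 codons, and the form that keeps it, known as type IIA, is the one made before cartilage matures, while mature cartilage cells skip it. The transcripts of the pair also differ by 38 bases at the start of exon 1. The division of fragments among the transcripts is the estimate of Cufflinks, and the error of that estimate was not analysed here.

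The transcripts from the start sites of Col9a1 shown above had similar estimated shares in both libraries, on few fragments in telencephalon. The longer form measured 31.1 FPKM in whole body against 0.114 FPKM in telencephalon, or 53.4% and 54.2% of the gene. The shorter form, known from the eye, stood at 26.2 and 0.0959 FPKM, or 45.1% and 45.8%. In telencephalon these rest on about 9 and 6 fragments, so a difference in share was not detectable at this depth.

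**Figure D4:**
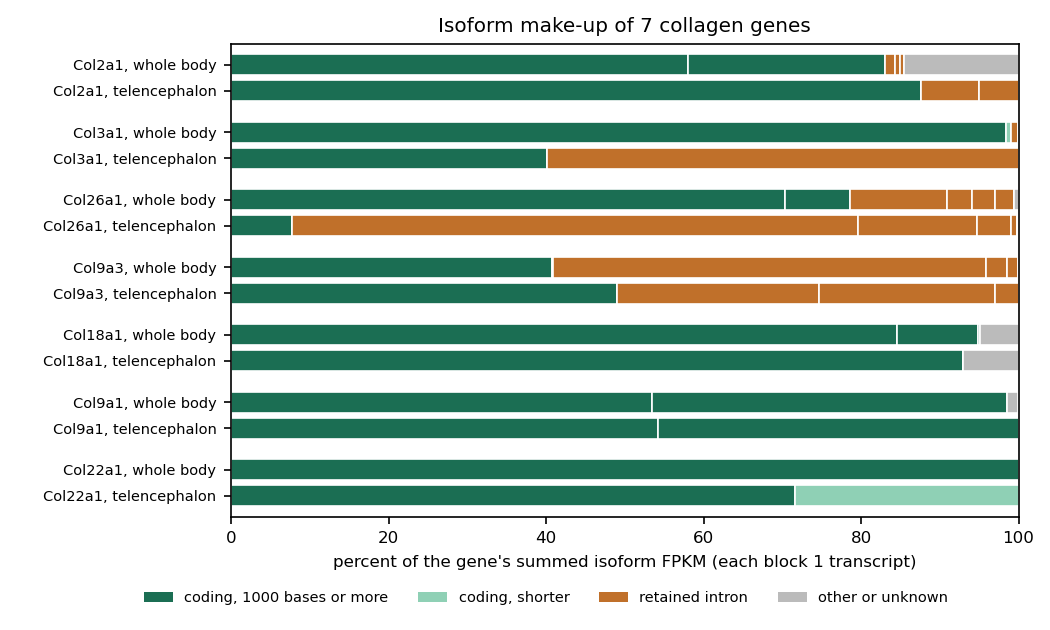
Percent of each gene's summed isoform FPKM held by each transcript (blocks) for 7 collagen genes in both libraries, coloured by annotated transcript type. Retained-intron transcripts fill most of the telencephalon bars of Col3a1 and Col26a1, and the second coding block of Col2a1 (25.1% in whole body) is missing in telencephalon.

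Genes that modify and fold the collagen chains in the endoplasmic reticulum were lower in telencephalon, by less than the fibrillar chains. Of 18 measured genes 17 were lower and 0 higher, with a median log2 ratio of -2.36. Among all 14987 genes measured 21.2% were lower and 9.39% higher, which is the background for the counts of each list. The filter shapes these counts too, since a gene that reached 1 FPKM in whole body alone could only be lower or within 2-fold. Among the genes named here and below, these were P3h2, Creb3l1, Lox, Tll1, Itga11, Timp1, Ctsk, Scx, Runx2 and Mkx. Serpinh1, the collagen chaperone HSP47, measured 330 FPKM in whole body against 41.1 FPKM in telencephalon, 8.02-fold lower. P3h2, a prolyl 3-hydroxylase, stood at 18.2 and 0.179 FPKM, and the chaperone genes Fkbp10 (64.7 and 3.18 FPKM) and Crtap (61.7 and 4.89 FPKM) were 20.3-fold and 12.6-fold lower. Plod3, a lysyl hydroxylase and glycosyltransferase, stood at 42.9 and 19.6 FPKM, and Tmem38b, an ion channel of the endoplasmic reticulum, at 2.51 and 1.7 FPKM.

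The list for collagen export and the transcription of its genes was mixed, with Sec24d the only lower gene of export. Of 7 measured genes 3 were lower and 4 within 2-fold, with a median of -0.54, while 21.2% of all genes measured were lower. The transcription factors Creb3l1 (20.2 and 0.601 FPKM) and Creb3l2 (31.7 and 2.85 FPKM) and the coat protein gene Sec24d (27.4 and 2.1 FPKM) were lower. Mia3, the export receptor TANGO1, stood at 24.5 and 37.5 FPKM, and its coat partner Sec23a at 42.9 and 41.2 FPKM.

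Of 12 measured genes for propeptide cleavage and cross-linking, 11 were lower and 0 higher (median -1.96). Several of the 12, Lox and Tll1 among them, reached 1 FPKM in whole body alone and could not be counted as higher. Lox, the lysyl oxidase that cross-links fibrils, measured 55.4 FPKM in whole body against 0.241 FPKM in telencephalon, 230-fold lower. Pcolce, the enhancer of C-propeptide cleavage, stood at 58.6 and 1.41 FPKM, and Loxl1, a relative of Lox, at 28 and 1.07 FPKM. The protease genes Tll1 (1.77 and 0.268 FPKM) and Adamts3 (2.95 and 2.84 FPKM), which cut procollagens, had the log2 ratios nearest 0. These were -1.13 and -0.04 on the FPKM + 1 scale. By FPKM alone Tll1 was 6.63-fold lower, since the added 1 FPKM shrinks the ratio of so low a level.

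Collagen receptors held the gene with the highest log2 ratio of the 7 pathway lists, Adgrg1. Of 9 measured receptors 6 were lower, 1 higher and 2 within 2-fold, with a median of -1.03. Adgrg1, also called GPR56, is a receptor for type III collagen on neural progenitors. It measured 63.9 FPKM in whole body against 230 FPKM in telencephalon, 3.6-fold higher, while Col3a1 stood at 431 and 6.8 FPKM. The discoidin receptors, which are kinases switched on by collagen, went opposite ways: Ddr1 stood at 40.5 and 79.5 FPKM and Ddr2 at 34.8 and 1.51 FPKM. Ddr1 was just within 2-fold at a log2 ratio of 0.96. Of 6 neural progenitor markers 5 were higher in telencephalon, with sums of 1008 and 1485 FPKM. Vim, the marker within 2-fold, gave 884 and 958 FPKM of these, and without it the sums were 124 and 527 FPKM, 4.24-fold higher in telencephalon. Their part in the receptor levels was not tested. Itga11, an integrin of fibroblasts, stood at 6.46 and 0.332 FPKM, and Mrc2, which takes up collagen, at 47.2 and 8.52 FPKM.

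Of 7 measured genes for collagen breakdown and its inhibitors, 6 were lower and 0 higher (median -2.95). Mmp2, a gelatinase, stood at 96.2 and 2.23 FPKM, the inhibitor Timp1 at 12.8 and 0.265 FPKM, and Ctsk, a collagen-cutting cathepsin, at 10.6 and 0.23 FPKM. Timp2 stood at 66.9 and 25 FPKM and Mmp9 at 4.13 and 2.26 FPKM.

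The transcription factors that switch on cartilage and bone collagens did not all share the direction of those collagens. Of 8 measured genes 5 were lower, 1 higher and 2 within 2-fold (median -1.54). Scx, a factor of tendon that acts on Col1a1, stood at 25.3 and 0.769 FPKM. Runx2, the factor of bone, stood at 14.8 and 0.65 FPKM, and Mkx, of tendon, at 3.57 and 0.252 FPKM. Scx, Runx2 and Mkx reached 1 FPKM in whole body alone and could not be counted as higher. Sox9, Sox5 and Sox6 together switch on Col2a1 in cartilage, and neural cells express them too. Sox9 measured 25.6 and 21.5 FPKM, and Sox6 15.1 and 24 FPKM. Sox5 reached 36.5 FPKM in telencephalon, 2.91-fold above whole body. Col2a1 in the same telencephalic library was at 8.98 FPKM.

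**Figure D5:**
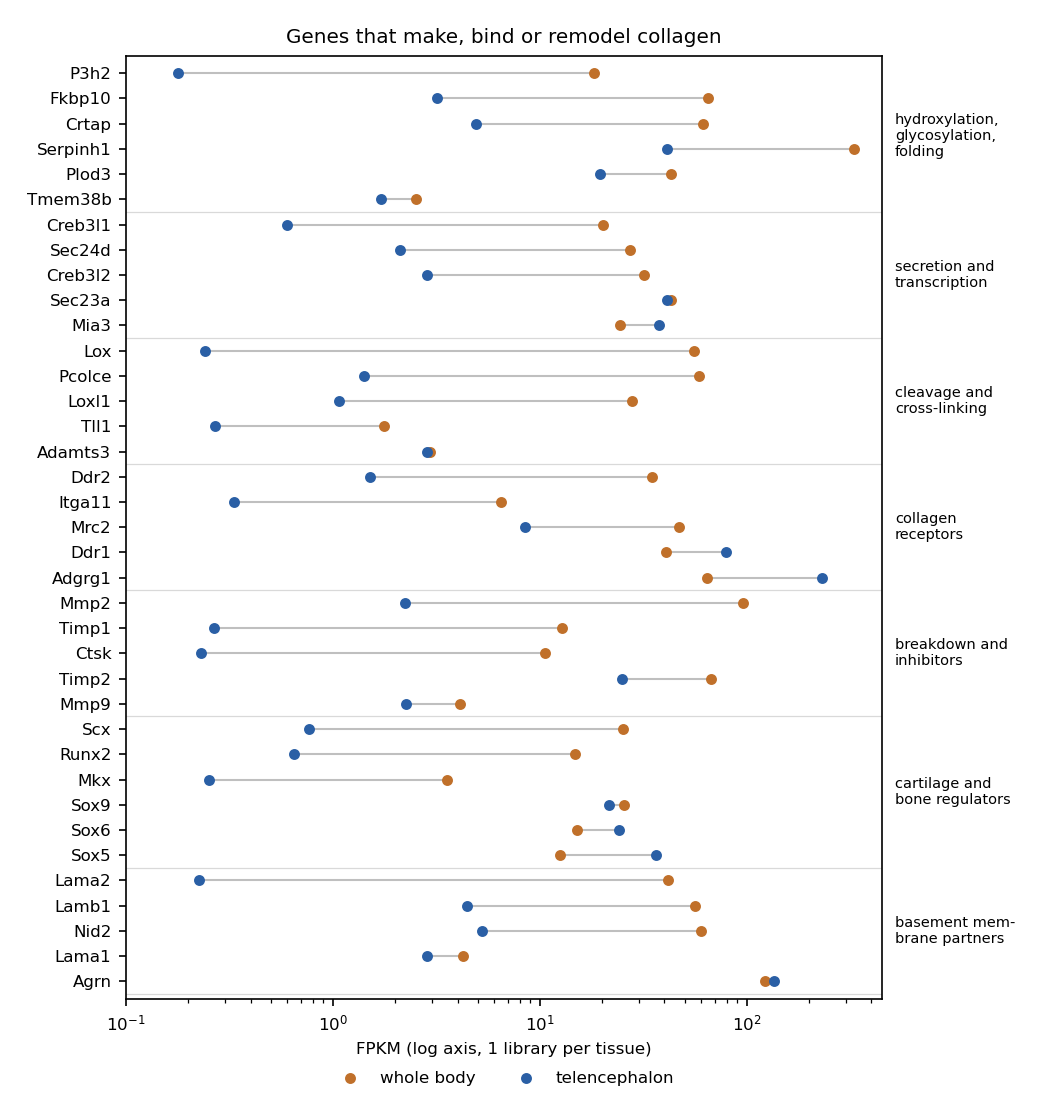
FPKM on a log axis in whole body and telencephalon for genes of 7 lists that make, bind or remodel collagen. Adgrg1, Ddr1, Sox5, Sox6, Mia3 and Agrn have the telencephalon point to the right of the whole-body point, and Lox has the longest bar, from 55.4 to 0.241 FPKM.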

How the data were processed

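The authors deposited FPKM per gene and per isoform, with 1 column per tissue. The tools were TopHat, Cufflinks and Cuffdiff on GRCm38, per the submitters' processing notes; versions and the annotation release are not given in the sources used here. RNA was extracted with a column kit and libraries were made with a TruSeq RNA v2 kit, per the labels' protocols. FPKM is not a count, so no count model was run.

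Log2 ratios used a pseudocount of 1 FPKM, and genes were counted past 2-fold where 1 of the libraries had at least 1 FPKM. Gene and transcript positions, lengths and types come from GENCODE M21, also GRCm38. Of 201 collagen transcripts 3 had no length there. Depth came from the steps of low FPKM values in genes with 1 isoform. A fit on 914 and 906 genes gave 29400000 and 22800000 fragments (whole body, telencephalon) after taking 330 and 340 bases off each length. In 995 and 938 genes kept out of the fit, 94.3% and 93% of values were whole within 0.1 fragments. Fragment numbers sum transcripts of 500 bases or more. Ratios of fragments are per mapped fragment, with exact 95% binomial intervals for counting error only. The intervals of chain ratios were scaled to FPKM.

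Type VI, types XV and XVIII, type VII and types XXVI and XXVIII were classed apart from the 5 classes compared. The collagen members, classes, 7 pathway lists and 10 marker lists were chosen with earlier results of these data known. Every chain is named. Of each pathway list the 3 genes farthest in the direction of its median and the 2 farthest the other way are named, with Serpinh1, Adgrg1, Ddr1, Ddr2, Lox and Sox9. List genes were matched by Ensembl identifier to current symbols, and 3 of 148 list symbols are not analysed here. Counting of differences was checked on simulated data. Alternatives changed the pseudocount, scaling, filter, classes and transcripts used. Python 3.11.15, numpy 2.4.6, pandas 2.3.3, scipy 1.17.1 and matplotlib 3.10.9 were used.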

Additional observations from a re-analysis of the deposited data

How the results depend on the processing

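No paired analysis was possible because each tissue has 1 library. No measured chain changed the sign of its log2 ratio under the 6 alternatives tried. Of these, keeping isoforms of 300 bases or more changed no log2 ratio as rounded, so it could change no sign or call. Medians depended on the pseudocount: at 0.1 and 0.01 FPKM the median log2 ratio of the measured chains was -4.74 and -5.57 in place of -3.45, that of FACIT chains -6.07 and -6.25 in place of -4.55, and that of transmembrane chains -4.74 and -6.38 in place of -2.35. At 0.1 FPKM the cleavage and cross-linking genes had -3.46 in place of -1.96. The coding transcripts of 1000 bases or more, and the marker sums without their largest gene, were chosen after seeing the data. Coding transcripts left all 36 calls as they were. TPM kept 35, and each other alternative that moved the ratios kept 34. Col22a1 was counted as higher with pseudocounts of 0.1 and 0.01 FPKM, a common upper quartile and TPM, which made the number of higher chains, and of higher FACIT chains, 1 in place of 0. Col20a1 was counted as lower with both smaller pseudocounts, and Col4a6 was no longer lower with a common upper quartile. With types VI, VII, XV and XVIII placed in the named classes, 7 basement membrane and 6 network chains were lower, in place of 4 and 2. At a floor of 5 FPKM, 2 transmembrane chains were lower in place of 4.

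The summed collagen FPKM was 22.8-fold lower in TPM and 31.5-fold lower with coding transcripts. Fibrillar shares were 62.3% and 31.4% without the most abundant chain of each library and 69.8% and 29.7% with coding transcripts (whole body and telencephalon). Basement membrane shares were 2.88% and 18.1%, and 5.64% and 43.1%. With coding transcripts, Col1a1 over Col1a2 was 2.16 in telencephalon (1.23 at gene level), and in whole body Col11a1 over Col11a2 was 1.41 (1.07), Col6a3 over Col6a1 0.522 (0.66), Col9a1 over Col9a2 1.22 (0.623) and Col9a3 over Col9a2 1.23 (1.51), the last 3.67 in telencephalon (5.14). With the most abundant isoform alone, ratios in whole body and telencephalon were 1.1 and 0.248 for Col5a1 over Col5a2, 3.3 and 3.78 for Col11a1 over Col11a2, 2.39 and 2.78 for Col4a5 over Col4a6, 0.32 and 0.233 for Col6a3 over Col6a1, and 1.66 and 3.67 for Col9a3 over Col9a2. Under that choice Col6a1 over Col6a2 was 0.886 and Col9a1 over Col9a2 0.663 in whole body, and Col1a1 over Col1a2 was 2.16 in telencephalon. These ratios depend on how fragments were divided among isoforms.

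At a summed isoform FPKM of 1 or more, 8 of 17 chains had a share differing by 25 points, in place of 4 of 8, against 15.2% and 10.3% of all genes. Those of Col3a1, Col9a3 and Col26a1 involve transcripts on few fragments in telencephalon, as described above. With a common upper quartile and with TPM, 2 collagen receptors were higher in place of 1, the added gene being Ddr1; the common upper quartile also left 4 lower receptors in place of 6, and 15 lower folding genes in place of 17. Chains on few fragments in telencephalon, such as Col6a1, Col8a2 and Col9a1, have wide counting intervals, while other folds depended on the transcripts used: with coding transcripts Col26a1 was 47.1-fold lower in place of 4.66, Col16a1 269 in place of 73.7 and Col3a1 155 in place of 63.4.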

Other observations

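Other genes whose symbol begins with Col but lacks a chain number encode proteins with a short collagen-like stretch or share only the name; they were looked up after the collagen values were seen. Colec12, a scavenger receptor with a collagen-like stalk, measured 27.1 FPKM in whole body against 0.603 FPKM in telencephalon, 45-fold lower. The collectin genes Colec10 (2.14 and 0.0517 FPKM) and Colec11 (2.05 and 0.0839 FPKM) rested on about 5 and 2 fragments in telencephalon. Colq, the collagen tail that anchors acetylcholinesterase at the neuromuscular junction, stood at 1.07 and 0.0175 FPKM, the latter from about 1 fragment. Col4a3bp, a ceramide transporter with no collagen sequence, stood at 8.07 and 4.91 FPKM.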
